A study of Mus musculus with 2 samples.

Results

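The Il17a and Il17f locus was taken as the stretch chr1:20680000-20795000 of mm9, which holds both genes. It contained 19 of the 86150 sites called over the genome in a STAT3 and a STAT5 chromatin immunoprecipitation library. All 19 were STAT5 regions and 15 of them were also STAT3 regions. The most heavily occupied places lay between the genes and not at their starts. The ratio of STAT3 to STAT5 changed from site to site: it was 2.01 at the start of Il17f, near 1 as counted at the start of Il17a and at several tall sites, and 0.0110 at the site farthest upstream of Il17a.

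Il17a and Il17f encode IL-17A and IL-17F, related cytokines that act as homodimers and as a heterodimer, recruit neutrophils and defend mucosal surfaces. They are the signature products of T helper 17 (Th17) cells and depend on the transcription factor RORγt. IL-6 drives this programme through STAT3, whereas IL-2 restrains it through STAT5. Activated STATs bind as dimers to DNA whose usual core is TTCNNNGAA, so both factors can in principle use the same sites, and the comparison asks where each was found at this locus.

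The STAT3 library came from cells given IL-6 (40 ng/ml) and used an antibody to STAT3, and the STAT5 library came from cells given IL-2 (200 IU/ml) and used antibodies to STAT5A and STAT5B, mixed. In both cases the cells were wild-type C57BL/6J CD4 T cells of spleen and lymph node, sorted as naive cells, held for 3 days on antibodies to CD3 and CD28 with TGF-beta at 2 ng/ml, IL-6 at 20 ng/ml and, as listed in the labels, antibodies to IL-4 and IL-2. Restimulation lasted 30 minutes, and 1% formaldehyde fixed the cells. Antibody and cytokine changed together and cannot be told apart, and with 1 library of each kind no difference below has a replicate check.

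On nuclear chromosomes there were 20784388 STAT3 and 17963766 STAT5 reads, and 7503 STAT3 and 7181 STAT5 reads fell in the locus. Levels are given as reads in a 200 bp window and as RPM, the same reads scaled to 1000000 nuclear reads. No pair of reads shared position and strand, so 200 bp can hold at most 400 reads, and this ceiling touches the tallest sites. The files give no genes, and exact gene limits on mm9 were not used here. Il17a spans about 20.721 to 20.725 Mb and runs towards higher coordinates, and Il17f spans about 20.767 to 20.775 Mb and runs the other way, so that its start is at the high end. In the RefSeq gene order on GRCm38.p6 the pair are direct neighbours, with Mir133b before Il17a and Mcm3 after Il17f.

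The promoters are shown because sites 7, 8 and 16, described below, lie within 1 kb of the approximate gene starts. The sequences are the 250 bases before each RefSeq start, read in the direction of the gene, from GRCm38.p6, a build whose positions must not be set against the mm9 positions used for the sites. The Il17a promoter is chr1:20730655-20730904 on the plus strand and the Il17f promoter is chr1:20784271-20784520 on the minus strand. Capitals mark a TATA box (TATAAA, gene strand only), the core of a ROR element (AGGTCA, either strand) and an AP-1 motif (TGANTCA, either strand).
Il17a: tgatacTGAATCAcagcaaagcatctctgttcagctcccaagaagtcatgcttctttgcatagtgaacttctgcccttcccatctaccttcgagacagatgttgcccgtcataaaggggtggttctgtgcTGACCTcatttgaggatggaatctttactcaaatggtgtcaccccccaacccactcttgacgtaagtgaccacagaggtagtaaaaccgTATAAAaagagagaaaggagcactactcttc
Il17f: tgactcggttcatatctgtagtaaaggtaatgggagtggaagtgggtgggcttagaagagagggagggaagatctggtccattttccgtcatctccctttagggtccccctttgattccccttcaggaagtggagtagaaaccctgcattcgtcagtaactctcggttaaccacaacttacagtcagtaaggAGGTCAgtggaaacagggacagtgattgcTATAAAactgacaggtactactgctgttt

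Neither promoter window held the STAT core TTCNNNGAA or the form with 1 more base between TTC and GAA on either strand, which are found in 7.02% and 5.85% of 32851 RefSeq promoter windows of the same length. Both held 1 TATA box, a match that 7.59% of the windows have. It begins 31 bases before the Il17a start and 29 bases before the Il17f start. Both also held 1 ROR core, found in 14% of windows, at 120 bases before Il17a on the opposite strand and at 58 bases before Il17f on the gene's strand. The AP-1 motif, found in 6.75% of windows, was present once in Il17a. None of these motifs overlap each other. The motifs were chosen with the sequences in view, a match is a description and not a binding site, and the absence of a STAT core says only that these letters are not in these windows.

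**Figure D1:**
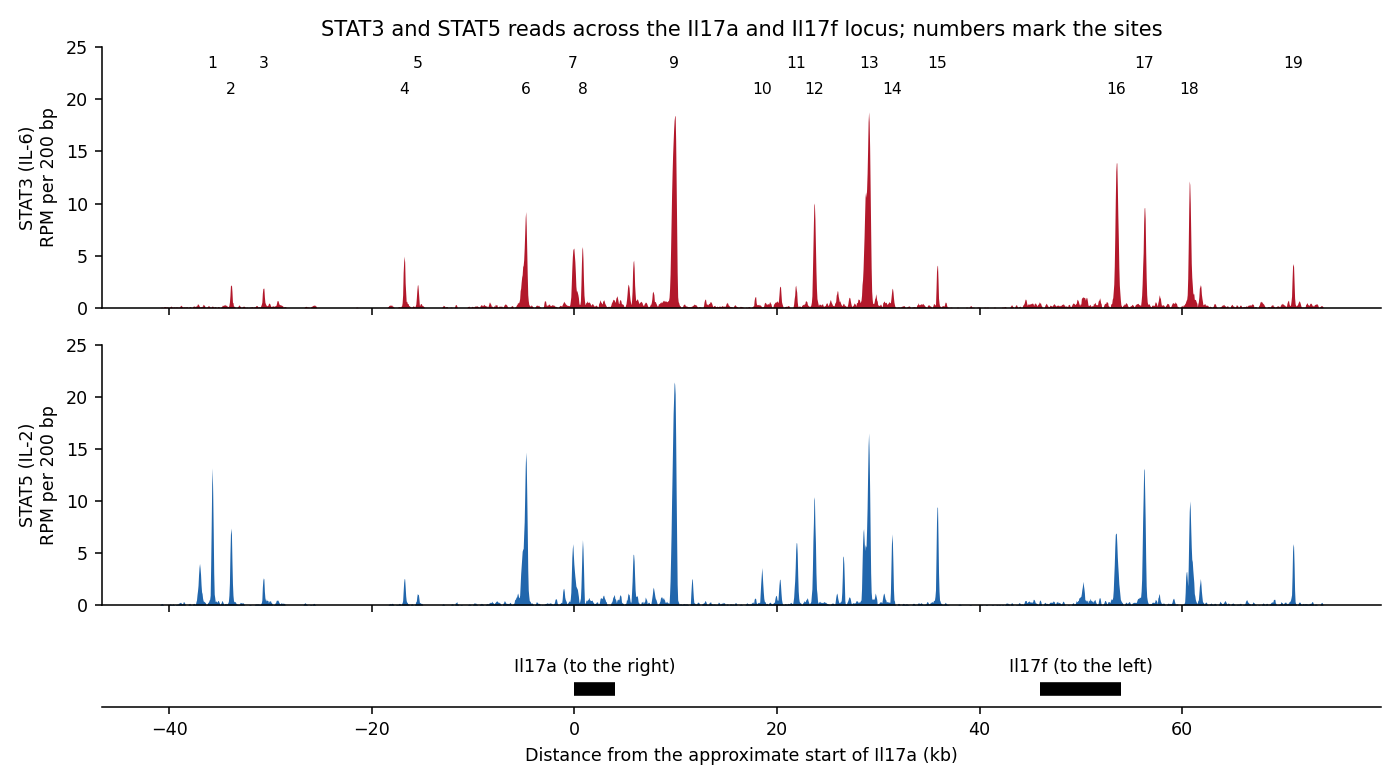
RPM in 200 bp windows for STAT3 (upper track) and STAT5 (lower track) against distance in kb from the approximate start of Il17a, with the approximate gene spans as black bars and the 19 sites numbered along the chromosome. The tallest points of both tracks stand at sites 9 and 13 between the genes, site 1 is seen with STAT5 alone, and site 16 at the start of Il17f is taller with STAT3.

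The locus was dense in called places. It held 15 STAT3 regions of 56921 in the genome and 19 STAT5 regions of 70559. Of its 200 bp windows with a read, 4.91% were called with STAT3 and 5.17% with STAT5, against a genome background of 0.862% for STAT3 and 1.5% for STAT5. The largest adjusted p was 3.1e-17 among the STAT3 regions and 5.4e-07 among the STAT5 regions (one-sided Poisson test, Benjamini-Hochberg adjustment over the genome). The smallest fold over the largest of the background means, which had to reach 4, was 5.50 among the STAT3 regions (site 5) and 4.66 among the STAT5 regions (site 14). Set beside all 22245 genome bins of the same length, 155 bins (0.697%) had 15 or more STAT3 regions and 51 (0.229%) had 19 or more STAT5 regions. The median bin had 1 of either. By reads, 19 bins reached the STAT3 total of the locus and 71 reached its STAT5 total. The locus was chosen with these results known, so these ranks describe it and test nothing.

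**Figure D2:**
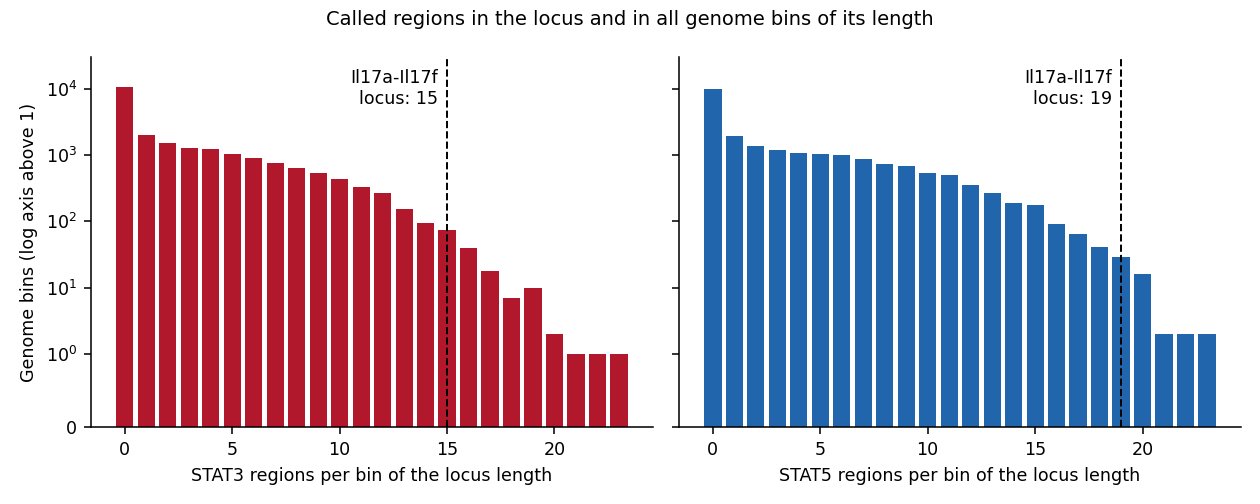
Number of genome bins of the length of the locus (vertical axis, logarithmic above 1) by how many STAT3 regions (left) or STAT5 regions (right) they hold. The dashed lines mark the locus, at 15 STAT3 and 19 STAT5 regions, near the high end of both distributions.

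The sites fell into a group before Il17a (sites 1 to 6), a pair at its start (7 and 8), a group between the genes (9 to 15), 1 at the start of Il17f (16) and 3 beyond it (17 to 19). They were 250 to 700 bp wide, with a median of 400 bp, and neighbouring centres were a median of 4450 bp apart (950 to 17700 bp). No STAT3-only site was present at the thresholds used, whereas 18.2% of genome sites were of that kind. Under stricter thresholds, sites 2 and 16 (minimum fold 8) or site 5 (limit of 1e-10 on the adjusted Poisson p) kept a STAT3 region only. The 15 sites with both antibodies made up 78.9% of the sites of the locus, against 47.7% of genome sites. Sites of the locus were tall, with medians of 103 STAT3 and 125 STAT5 reads against 25 STAT3 and 31 STAT5 reads over the genome. Among the 42218 genome sites at or above the lowest level found in the locus (2.21 RPM in the taller library, a limit set after the data were seen), 63.4% had both antibodies and 9.38% were STAT3-only.

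**Figure D3:**
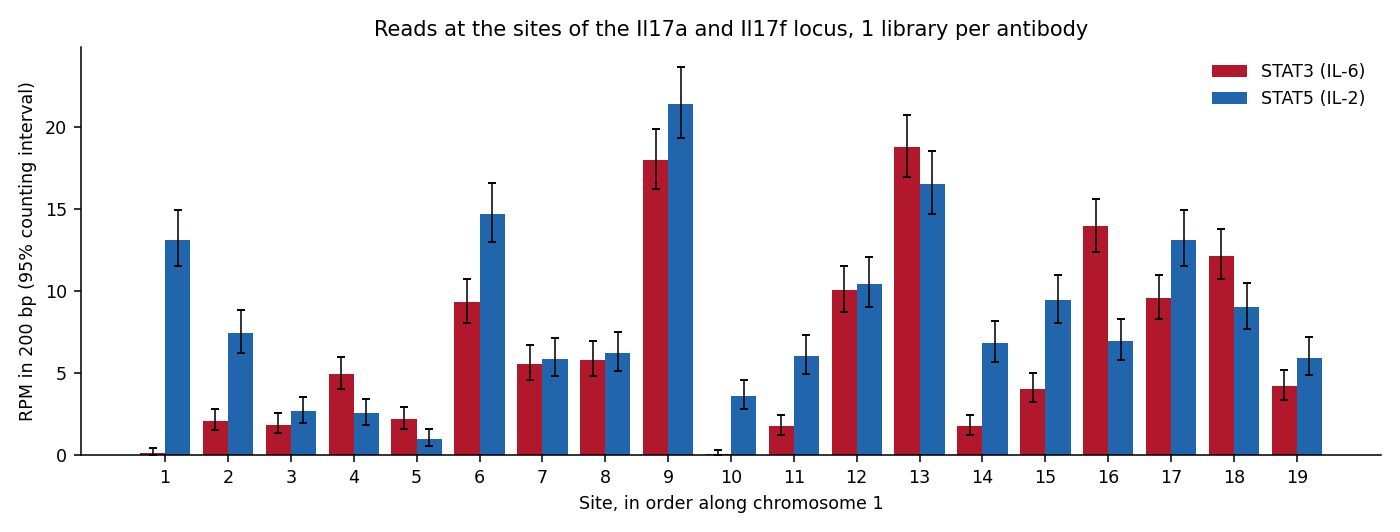
STAT3 (left bar of each pair) and STAT5 (right bar) RPM in 200 bp at the 19 sites in order along chromosome 1, with bars from 0 and exact Poisson 95% intervals that cover counting error only. STAT3 and STAT5 are of like height at sites 7, 8 and 12, STAT5 stands almost alone at sites 1 and 10, and STAT3 is the taller at sites 4, 5, 13, 16 and 18.

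At the start of Il17a, STAT3 and STAT5 reads were similar in number as counted. Site 7 (chr1:20720701-20721150) had 116 STAT3 and 106 STAT5 reads and a STAT3/STAT5 ratio of RPM of 0.946 (exact conditional 95% interval 0.721 to 1.24). Site 8 (chr1:20721601-20721950), which lies inside the approximate span of the gene, had 121 STAT3 and 112 STAT5 reads, giving a ratio of 0.934 (0.716 to 1.22). Both intervals include 1, but not under each setting. Scaling to the reads of 10 kb bins that hold no region gave 0.683 (0.521 to 0.898) at site 7 and 0.675 (0.517 to 0.880) at site 8, and in the 200 bp outside the central window site 7 had 81 STAT3 and 46 STAT5 reads (1.52, 1.05 to 2.24). With a minimum fold of 8 neither site was called in either library. Since the gene start is known here only to about 1 kb, which side of it site 7 lies on was not tested. The reads of this pair were far fewer than those of the tallest sites: the 2 sites together held 237 STAT3 and 218 STAT5 reads, less than site 9 alone.

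At the start of Il17f the balance lay towards STAT3. Site 16 (chr1:20774251-20774800) had 290 STAT3 reads (14.0 RPM, 12.4 to 15.7) and 125 STAT5 reads (6.96 RPM, 5.79 to 8.29). The ratio was 2.01 (1.62 to 2.49), higher than at 85.8% of genome sites. The interval begins below 2, so the site was not called STAT3-higher. Reads were even between strands, with 147 plus and 143 minus for STAT3 and 61 plus and 64 minus for STAT5. Here STAT3 took 72.5% of the available positions, and a correction for positions already taken raised the ratio to 2.98 (2.40 to 3.69), past the 2-fold limit. Scaling to the reads of 10 kb bins that hold no region lowered it to 1.45 (1.17 to 1.80), still above 1.

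The 2 tallest sites lay between the genes. Site 13 (chr1:20749601-20750300), about 29 kb after the start of Il17a and 25 kb from that of Il17f, had the most STAT3 reads in 200 bp, 391 (18.8 RPM, 17.0 to 20.8), beside 297 STAT5 reads (16.5 RPM, 14.7 to 18.5). In 400 bp it had 636 STAT3 reads, fewer than the 716 of site 9. Only 7 of the 86150 genome sites, itself included, had as many STAT3 reads in 200 bp as site 13. Site 9 (chr1:20730501-20731150), about 10 kb after the start of Il17a, had the most STAT5 reads, 385 (21.4 RPM, 19.3 to 23.7), beside 374 STAT3 reads (18.0 RPM, 16.2 to 19.9). As many STAT5 reads were found at 272 genome sites, itself included. These 2 sites held 29.1% of the reads summed over the 19 site windows for STAT3 and 23.3% for STAT5.

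The ratios of these tall sites are bounded by the ceiling of 400 reads. STAT3 had taken 97.75% of positions at site 13 and 93.5% at site 9, while STAT5 had taken 74.25% at site 13 and 96.25% at site 9. As counted, the ratio was 1.14 (0.976 to 1.33) at site 13 and 0.840 (0.726 to 0.971) at site 9, which reads as nearly equal occupancy. In the 200 bp just outside the central window, where fewer positions are taken, site 13 had 245 STAT3 and 127 STAT5 reads, giving a ratio of 1.67 (1.34 to 2.08), a measure added after the data were seen. Site 9 had 342 STAT3 and 309 STAT5 reads there, giving a ratio of 0.957 (0.818 to 1.12). The correction for positions already taken gave 2.42 (approximate interval 1.96 to 2.98) at site 13 and 0.720 (0.587 to 0.882) at site 9. At such shares it rests on the few positions left free. At site 13 these 2 measures gave a larger STAT3 excess than the central count did, but scaling to the reads of 10 kb bins that hold no region put the central count at 0.822 (0.705 to 0.959), below 1. That scaling was applied to the central count alone, which the ceiling limits. Without it, site 13 had a ratio of 1.30 (1.14 to 1.47) in 400 bp and 1.44 (1.30 to 1.61) over the whole merged region. At site 9 neither the central count, the count just outside it nor the correction put STAT3 above STAT5.

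**Figure D4:**
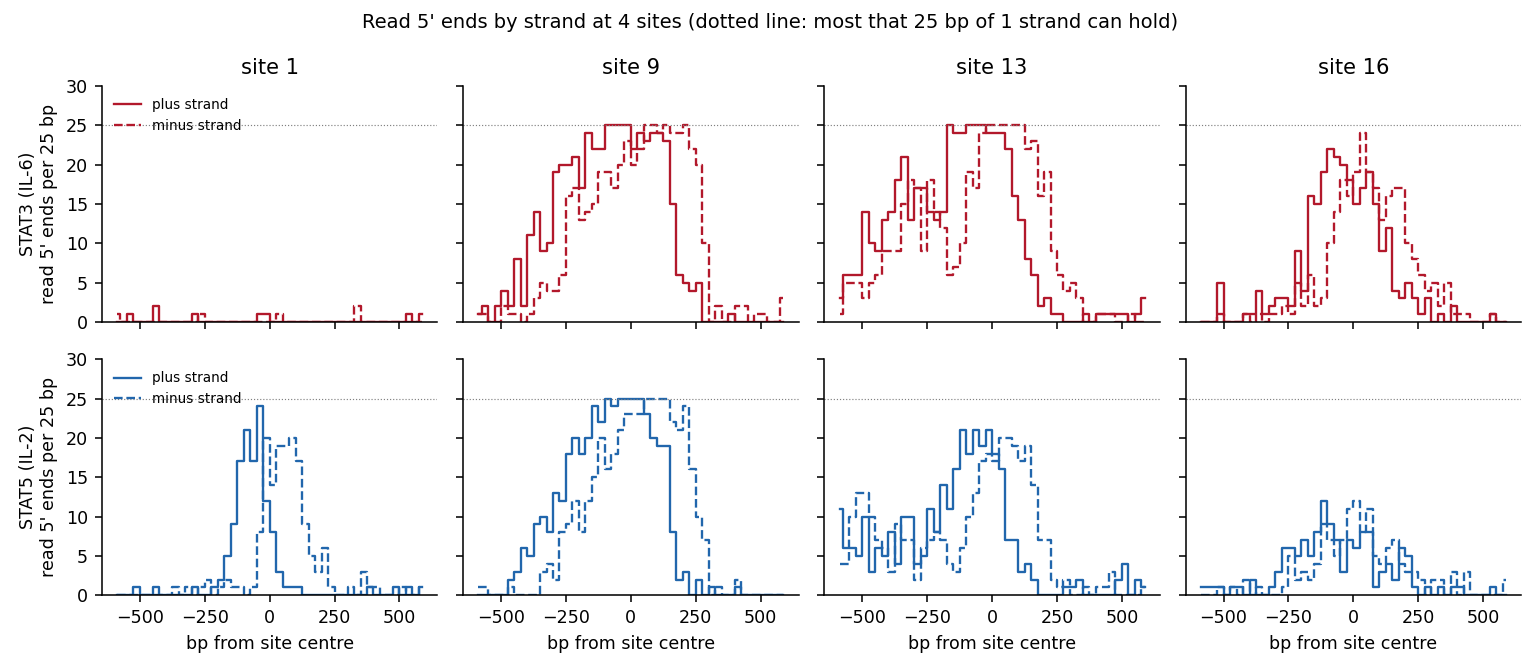
Read 5′ ends per 25 bp on the plus strand (solid) and minus strand (dashed) against distance in bp from the centre of sites 1, 9, 13 and 16, STAT3 above and STAT5 below. The dotted line marks the most that 25 bp of a strand can hold: STAT3 at sites 9 and 13 and STAT5 at site 9 run along it, whereas site 16 and the STAT5 reads of site 13 stay under it.

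Several sites carried STAT5 with little or no STAT3. Site 1 (chr1:20685051-20685450), about 36 kb before Il17a, had 3 STAT3 reads and 236 STAT5 reads, which is 0.144 RPM (0.0298 to 0.422) and 13.1 RPM (11.5 to 14.9). Its ratio of 0.0110 (0.00225 to 0.0325) was the lowest of the locus, and 2.49% of genome sites had a lower one. The 3 STAT3 reads compare with a genome-wide mean of 1.76 STAT3 reads per window, so the level with STAT3 was close to that of an average place in the genome, while STAT5 had 110 plus and 126 minus strand reads in a sharp peak. Site 10 (chr1:20739301-20739650), about 18 kb after the start of Il17a, was of the same kind but lower, with 2 STAT3 and 65 STAT5 reads and a ratio of 0.0266 (0.00315 to 0.100). Of the 28825 genome sites with 50 or more STAT5 reads, 1962 (6.81%) had at most 3 STAT3 reads, as these 2 of the 16 such sites of the locus did.

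A further set carried STAT3 at a reduced but clear level. Site 2 (chr1:20686901-20687300) had 44 STAT3 and 134 STAT5 reads (ratio 0.284, 0.197 to 0.402), next to site 1 along the chromosome but with a STAT3 region of its own. Site 11 (chr1:20742751-20743050) had 37 STAT3 and 109 STAT5 reads (0.293, 0.196 to 0.430). Site 14 (chr1:20752251-20752500) had 37 STAT3 and 123 STAT5 reads (0.260, 0.175 to 0.378). With sites 1 and 10 these were the 5 of 19 sites called STAT5-higher, each with an interval wholly under 0.5. Sites 11 and 14 have no STAT3 region, although their STAT3 reads stood 21.0-fold over the genome-wide mean, because neighbouring sites raise the local mean against which windows were called. Site 15 (chr1:20756601-20757050) had 84 STAT3 and 170 STAT5 reads and a ratio of 0.427 (0.325 to 0.558), which reaches past 0.5.

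The remaining sites differed less between the libraries. Site 6 (chr1:20715801-20716450), about 5 kb before Il17a, was tall with both, with 194 STAT3 and 264 STAT5 reads and a ratio of 0.635 (0.525 to 0.767). Site 12 (chr1:20744451-20744900) had 209 STAT3 and 188 STAT5 reads, giving a ratio of 0.961 (0.785 to 1.18). Scaling to the reads of 10 kb bins that hold no region lowered it to 0.694 (0.567 to 0.850), below 1. At sites 6 and 12, as at sites 7, 8, 9, 13, 17, 18 and 19, the whole interval as counted lay within 2-fold of equal levels. Site 3 (chr1:20690101-20690500) was low with both, at 39 STAT3 and 48 STAT5 reads (0.702, 0.448 to 1.09).

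Sites 4 and 5, before Il17a, also had more STAT3 than STAT5 as counted. Site 4 (chr1:20704001-20704400), about 17 kb before Il17a, had 103 STAT3 and 46 STAT5 reads and a ratio of 1.94 (1.35 to 2.80). Site 5 (chr1:20705351-20705700), about 15 kb before it, had 46 STAT3 and 18 STAT5 reads, and its ratio of 2.21 (1.26 to 4.05) was the highest of the locus as counted, exceeding that of 88.1% of genome sites. In 400 bp the ratio of site 16, at 1.91, was above that of site 5, at 1.70. The levels of site 5 were 2.21 RPM (1.62 to 2.95) with STAT3 and 1.00 RPM (0.594 to 1.58) with STAT5, the lowest STAT5 level of any site here. It had 20 plus and 26 minus strand reads for STAT3 and 8 plus and 10 minus for STAT5. In the 200 bp outside the central window site 5 had 7 STAT3 and 9 STAT5 reads, too few to tell a direction. Under scaling to the reads of 10 kb bins that hold no region, the intervals of both sites included 1. The ratios were then 1.40 (0.979 to 2.02) at site 4 and 1.60 (0.908 to 2.92) at site 5.

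Beyond Il17f the ratios of the 3 sites alternated about 1 as counted in 200 bp. Site 17 (chr1:20777001-20777450), about 2 kb upstream of the start of Il17f, had 199 STAT3 and 236 STAT5 reads (ratio 0.729, 0.600 to 0.884). Site 18 (chr1:20781501-20782000), about 7 kb upstream, had 253 STAT3 and 162 STAT5 reads (1.35, 1.10 to 1.65). Site 19 (chr1:20791751-20792150), about 17 kb upstream and on the side of Mcm3, had 88 STAT3 and 107 STAT5 reads (0.711, 0.530 to 0.951). Site 18 thus leaned towards STAT3 between neighbours that leaned towards STAT5.

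In all, the interval of the ratio lay wholly above 1 at 4 sites, wholly below 1 at 10 and included 1 at 5. Site 9 is among the 10, but STAT3 had taken 93.5% and STAT5 96.25% of its positions. Its central count is therefore limited by the ceiling and cannot settle a direction. Its interval included 1 just outside the central window (0.818 to 1.12) and over the whole merged region (0.877 to 1.06). After correction for positions already taken it lay below 1 (0.587 to 0.882). All 14 sites whose interval left out 1 showed the same direction on plus and minus strand reads counted alone. Of the 14, 10 kept that direction under each of 10 other ways of counting or scaling, site 9 included. Direction here is the side of 1 on which the ratio fell, whatever its interval. The exceptions were sites 5, 14, 18 and 19 in the 200 bp outside the central window, and site 18 (0.975) also under scaling to 10 kb bins that hold no region. No site of the locus was called STAT3-higher and 5 (26.3%) were called STAT5-higher, against a background of 3.18% STAT3-higher and 27.7% STAT5-higher among all genome sites. The median ratio was 0.729 in the locus and 0.739 over the genome, and with only sites of both antibodies taken it was 0.934 in the locus and 0.931 over the genome. Among the genome sites at or above the lowest level of the locus, 4.46% were STAT3-higher and 36.7% STAT5-higher, and the median ratio was 0.614.

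**Figure D5:**
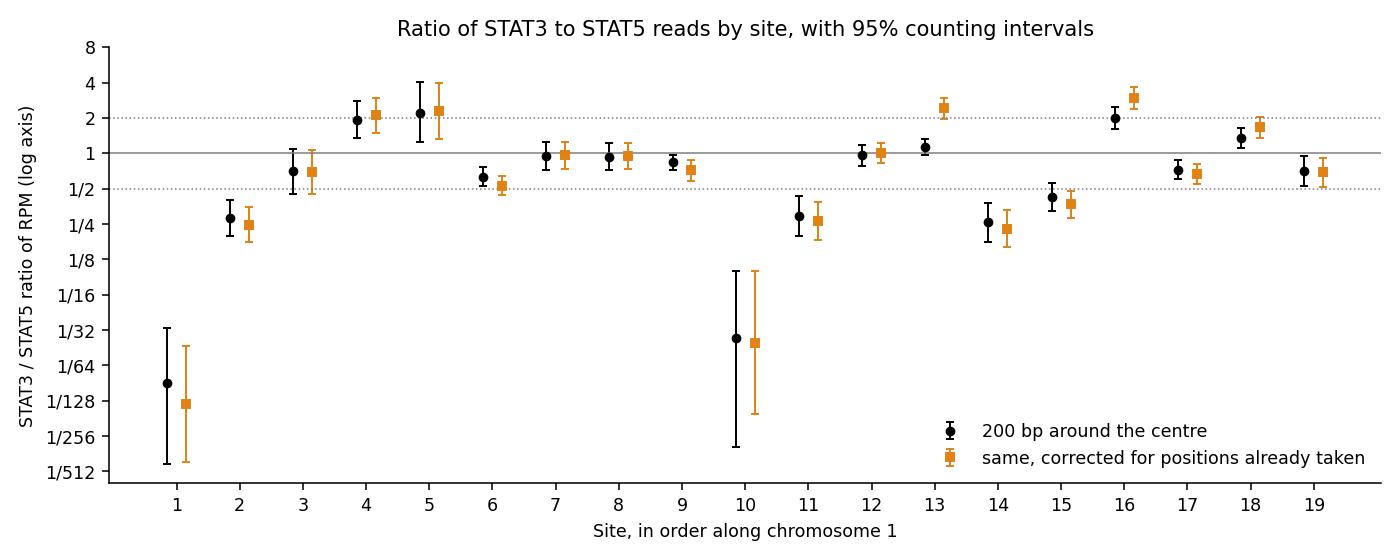
Ratio of STAT3 to STAT5 RPM at the 19 sites on a logarithmic axis, as counted in 200 bp (black circles, exact conditional 95% intervals) and after correction for positions already taken (orange squares, approximate 95% intervals); the dotted lines stand at 2-fold either way. Sites 1 and 10 lie far below the rest, and the correction moves site 13 from 1.14 to 2.42 and site 16 from 2.01 to 2.98.

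Summed by part of the locus, site windows before Il17a had 429 STAT3 and 746 STAT5 reads, giving a ratio of 0.497 (0.440 to 0.560), of which site 1 supplied 236 STAT5 reads. Those between the genes had 1134 STAT3 and 1337 STAT5 reads (0.733, 0.677 to 0.794), and those beyond Il17f had 540 STAT3 and 505 STAT5 reads (0.924, 0.817 to 1.05). Over all sites the sums were 2630 STAT3 and 2931 STAT5 reads, giving a ratio of 0.776 (0.735 to 0.818). Within each of the longer stretches the single sites spread more widely than these sums, between 0.0110 and 2.21 before Il17a and between 0.0266 and 1.14 between the genes. All these sums count 200 bp windows, where STAT3 at sites 9 and 13 and STAT5 at site 9 stood near the ceiling on reads. Over the full width of the sites there were 4596 STAT3 and 4509 STAT5 reads, giving a ratio of 0.881 (0.845 to 0.918). The size of the STAT5 excess thus depended on the width counted.

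Ranking the sites within a library gave different orders. For STAT3 sites 13 and 9 came first, both so near the ceiling of 400 reads that their order cannot be read from these counts, and sites 16, 18 and 12 followed. For STAT5 site 9 stood above site 13 (1.30, 1.11 to 1.51), which was followed by sites 6, 1 and 17, with no difference beyond counting error between neighbours from site 13 to site 17, whereas site 17 stood above the next, site 12 (1.26, 1.03 to 1.53). Of the 18 pairs of neighbours in each order, 5 in the STAT3 order and 4 in the STAT5 order differed beyond counting error. The rank correlation of STAT3 with STAT5 reads was 0.530 over the 19 sites (Spearman's rho) and 0.686 over the 15 with both antibodies, against 0.567 over genome sites with both. These correlations describe sites that share 2 libraries and were chosen for being high in at least 1 of them.

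At the 15 sites with both a STAT3 and a STAT5 region, whose definition by overlap favours small distances, the reads of both were centred close together. The median fragment position within 400 bp differed by a median of 15.5 bp between STAT3 and STAT5, by 25 bp or less at 12 sites and by at most 49 bp (site 17). The tallest 200 bp window was the same at 9 of the 15 sites and within 50 bp at 14. Sites 11 and 14 had no STAT3 region, and there the STAT3 position minus the STAT5 position was -64 bp and 17.5 bp. At sites 1 and 10, also without one and with 3 and 6 STAT3 reads in 400 bp, it was 5 bp and -85 bp. The 1 shared site with tallest windows farther apart was site 9, where the STAT3 window lay 100 bp to the right of the STAT5 window on a plateau near the ceiling. No second library of either antibody was analysed here to set beside these offsets.

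Reads between the sites were also more frequent here than elsewhere. Outside sites the locus had 27.3 STAT3 and 25.1 STAT5 reads per kb, against 6.16 STAT3 and 4.12 STAT5 reads per kb over the genome outside sites and 5.96 STAT3 and 3.98 STAT5 reads per kb on chromosome 1. More than 1 kb from any site the locus still had 23.1 STAT3 and 19.8 STAT5 reads per kb. The ratio of RPM between sites was 0.940 (0.892 to 0.991) in the locus and 1.29 (1.29 to 1.29) over the genome, so outside sites the locus carried relatively more STAT5 reads than the rest of the genome. Sites took 61.3% of STAT3 reads (exact 95% interval 60.1 to 62.4%) and 62.8% of STAT5 reads (61.7 to 63.9%) on 8.45 kb of the locus. Part of the between-site reads came from peaks that missed the call, and without an input library the share that would be found with no antibody was not tested. The longest stretches with no read of either library were neighbours, chr1:20695468-20699569 (4102 bp) and chr1:20699571-20702564 (2994 bp), before site 4. Whether reads of 25 bases can be placed there was not tested, and nothing can be said of binding within them.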

How the data were processed

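Each deposited file lists aligned reads, 1 line per read, giving chromosome, first and last base counted from 1, strand, a score and how the read matched. Positions are on mm9, per the submitters' processing notes. Neither the aligner nor the step that left at most 1 read per position and strand is named in the sources used here. The score deposited by the authors, 0 throughout, was not used. There was 1 STAT3 and 1 STAT5 library, with 20784388 and 17963766 nuclear reads, and no control library was analysed here.

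Read 5′ ends were moved 50 bp in the 3′ direction and counted in 200 bp windows with a step of 50 bp over chromosomes 1 to 19, X and Y (numpy 2.4.6 and scipy 1.17.1 under Python 3.11.15, with pandas 2.3.3 and matplotlib 3.10.9). A window was called at 5 or more reads, 4-fold or more over whichever mean was largest (10 kb, 5 kb or whole genome), and a one-sided Poisson p of 1e-05 or less after Benjamini-Hochberg adjustment over all windows with a read. For the genome mean, length was counted as the 2360778000 bp in 1 kb bins where either library had a read. Regions join called windows up to 100 bp apart, and those with over 80% of summit reads on 1 strand were left out, which removed none in the locus. Overlapping regions of the libraries were merged into sites, centred on the summit with the higher RPM (reads scaled to 1000000 nuclear reads). Ratios carry exact conditional (Clopper-Pearson) 95% intervals, except those corrected for positions already taken, whose 95% intervals are approximate. That correction takes reads as spread evenly over the positions of a window. STAT3-higher or STAT5-higher means an interval wholly beyond 2-fold. Intervals cover counting error only. The caller and the interval were tested on simulated data. For the caller the simulated background was even, and simulated sites were never as close together as the closest of the locus. Every region called in the locus is reported, and the sites with the most reads of either library and the highest and lowest ratio are described in full.

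The locus, lists and rules were chosen with earlier results of these data known. Other settings changed thresholds, means, strand filter, read shift, depth, scaling, counting width and ratio limit, and 2 more were chosen after the data were seen. Gene names, gene order and promoter sequences came from RefSeq tables on GRCm38.p6, and no coordinates were converted. Annotation of sites, motifs within sites and other Th17 loci need an mm9 annotation or sequence and were not analysed here.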

Additional observations from a re-analysis of the deposited data

How the results depend on the processing

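With 1 library per antibody no replicate could be left out, and depth limits most the low counts at sites 1, 5 and 10. No paired analysis was possible because each group holds 1 library. The 15 shared sites stayed 15 under both stricter overlap rules. With a minimum fold of 8, 9 regions of each library were left, which share sites 4, 6, 9, 12, 15, 18 and 19, and sites 7, 8 and 13 were among those lost in both. Sites 2 and 16 then kept a STAT3 region without a STAT5 region. With a limit of 1e-10 on the adjusted Poisson p, 15 STAT3 and 18 STAT5 regions were left, and site 5 lost its STAT5 region. Against the genome mean only, 37 STAT3 regions and 42 STAT5 regions were called, which overlap all 15 and all 19. All of these changes follow from the threshold. STAT3-higher sites numbered 1 (site 16) with intervals beyond 1.5-fold and 1 (the same site) after correction for positions already taken. STAT5-higher sites numbered 3 with plus strand reads only, 4 with minus strand reads only and 1 in the 200 bp outside the central window, where counts are fewer. They numbered 4 with each library at its own tallest window, where site 11 was not called (0.357, 0.246 to 0.509). They numbered 6, with site 15 gained, under scaling to 10 kb bins that hold no region, the 1.5-fold limit and the correction. In the 200 bp outside the central window, the ratio at site 14 turned to 1.02 (0.422 to 2.52), with 13 STAT3 and 11 STAT5 reads. The tallest 200 bp windows were a median of 0 bp apart, on a grid of 50 bp. Scaling to 10 kb bins that hold no region multiplied every ratio by 0.722. Beyond this, the cause was not tested.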

Other observations

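Some peaks of the locus missed the call because neighbouring sites raise the local mean. Against the genome-wide mean alone, 182 STAT3 and 173 STAT5 windows outside the 19 sites passed the same thresholds. These windows overlap each other, and the joined stretches clear of any site numbered 21 with STAT3 and 24 with STAT5. The tallest with STAT3, chr1:20726751-20726950 between sites 8 and 9, had 94 STAT3 and 87 STAT5 reads (ratio 0.934, 95% interval 0.690 to 1.26) and was 53.4-fold over the genome-wide STAT3 mean but 3.01-fold over its surroundings. The tallest with STAT5, chr1:20749401-20749600, directly adjoins site 13, and its centre lay 550 bp from that of the site. It had 79 STAT3 and 126 STAT5 reads (0.542, 0.404 to 0.724), so this flank of site 13 had another balance than the central window.

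A pair of these uncalled peaks resembled sites 1 and 10 in having much STAT5 and little STAT3. The window chr1:20747451-20747650, between sites 12 and 13, had 9 STAT3 and 85 STAT5 reads (0.0915, 0.0405 to 0.182). The window chr1:20683901-20684100, with its centre 1250 bp from that of site 1, had 2 STAT3 and 72 STAT5 reads (0.0240, 0.00285 to 0.0899). With STAT5 it reached 3.97-fold over its surroundings, just under the limit of 4. The stretch upstream of Il17a thus held a second place with STAT5 and a STAT3 count near the genome-wide mean of 1.76 per window. A window chr1:20726701-20726900 that overlaps chr1:20726751-20726950 had 91 STAT3 and 88 STAT5 reads. The other windows among the tallest 5 of either library had 15 to 46 STAT3 and 45 to 58 STAT5 reads. Among them, chr1:20781301-20781500 directly adjoins site 18 and had 15 STAT3 and 58 STAT5 reads (0.224, 0.118 to 0.400). This flank of site 18 thus had another balance than its central window. The rest had ratios of 0.846 (0.551 to 1.30), 0.826 (0.531 to 1.28) and 0.624 (0.403 to 0.960). These values have no replicate, and no explanation was tested.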
